A study of Mus musculus with 24 samples.

Results

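Genes of the cell cycle and of DNA replication were followed in mouse heart after a stroke of the brain. The set was named gene by gene and held 39 genes: the proliferation marker Mki67, cyclins and cyclin-dependent kinase, the MCM helicase, replication enzymes, and genes of the spindle, the kinetochore and the exit from mitosis. Of these, 38 were matched by symbol among 24011 named genes, and Ccnb1 was not analysed here. The choice used no measured value of these hearts, but the set was proposed with other results of the same arrays known. All hearts came from C57BL/6J mice 8 weeks old. The mice had either a sham operation or MCAO, in which the middle cerebral artery is blocked so that part of the brain becomes ischemic. One pair of groups was taken 24 h after either operation and the other pair after 72 h. Each of the 4 groups had 6 Affymetrix arrays of total heart RNA, and no genotype or drug was added. Whether each array came from its own animal is not said in the labels, so the p-values speak of the spread among arrays, which may be technical.

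A cell that divides first loads the MCM helicase onto replication origins, copies its DNA behind the sliding clamp PCNA, and then separates the chromosomes with spindle motors, kinetochore proteins and mitotic kinases. Cyclin-dependent kinases drive these steps, and proteins of the p21 family hold them back. Most cardiomyocytes of the adult mouse have left the cell cycle, while fibroblasts, endothelial cells and leukocytes of the heart can still divide. In RNA of whole hearts, fewer cells of a type and less RNA per cell cannot be told apart.

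The members lay low on the scale of these arrays. The table held log2 values with a median of 4.16 over all genes, and the members' means over the 24 arrays ran from 3.22 for the checkpoint kinase gene Bub1 to 9.10 for Pcna, with a median of 3.81. Probes differ in brightness, so these means do not order the genes. As a rough reference for dim probes, 1348 olfactory and vomeronasal receptor genes, which serve smell, were taken, a choice made after the data were seen. The 95th percentile of their means was 3.95, and 23 of the 38 members lay under it, as did 40.1% of the other genes. Pcna, the sliding clamp, was the one member with a mean above 5. Cardiomyocyte markers showed the tissue: the linear sum of 8 such genes ran from 55531 to 59148 in the sham arrays and from 50307 to 56397 in the MCAO arrays, and 0 of the 8 were at 0, since the lowest value of the whole table was 2.78. Sums of 6 T and B cell markers stayed between 74.7 and 86.0 in every array. Most of these 6 were themselves dim, so the steady sums say little about those cells.

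One control array stood apart for these genes, replicate 2 of the sham group at 72 h. In it 34 of the 38 members had the highest value of their group, which held for 17.4% of all genes, and 22 had the highest value of all 24 arrays, which held for 3.48% of all genes. Its members exceeded the mean of the other 5 sham arrays by a median of 0.39 on the log2 scale, against medians between -0.18 and 0.14 for the other 23 arrays set against their own groups. Mki67, which encodes the Ki-67 protein of cycling cells, was at 5.29 there against 4.03 ± 0.09 in the other 5 (log2, mean ± SD, n = 5), a difference of 1.26 or 2.39-fold. Cyclin A2 (Ccna2) was higher by 1.00, the spindle midzone gene Prc1 by 0.87, cyclin B2 (Ccnb2) by 0.82, the DNA topoisomerase gene Top2a by 0.78, the ribonucleotide reductase gene Rrm2 by 0.73 and the mitotic kinase gene Plk1 by 0.72. In all, 15 members were higher by more than 0.5, which was true of 2.39% of all genes, and 2 members were lower, the survivin gene Birc5 by a difference of -0.07 and the thymidylate synthase gene Tyms by -0.17. The counts, medians and leading changes at 72 h are therefore given with and without this array.

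**Figure D1:**
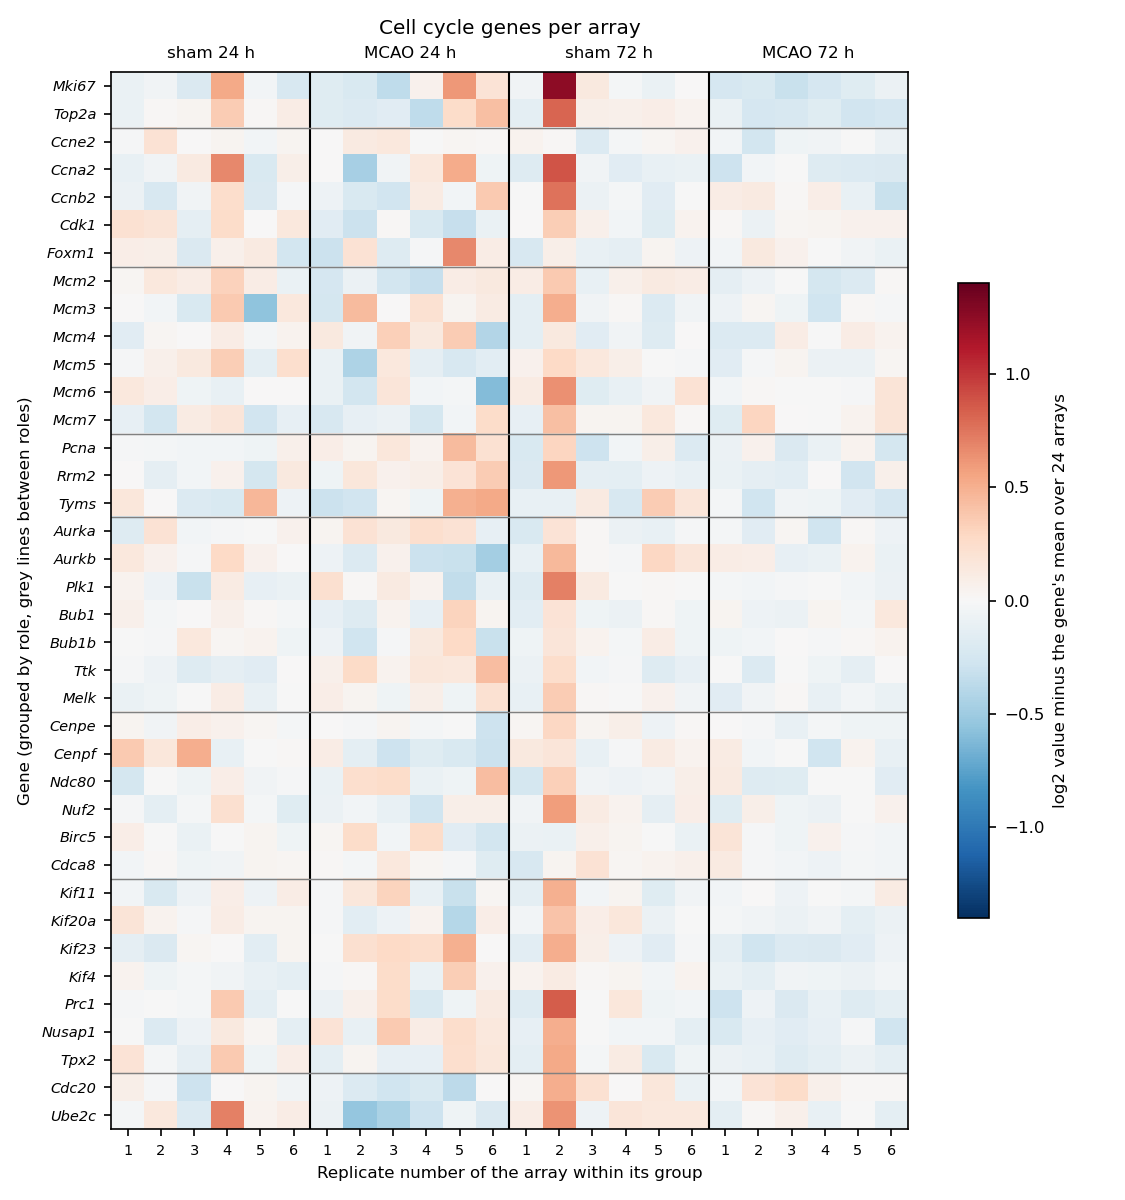
Each cell is 1 member in 1 array, coloured by its log2 value minus the mean of that gene over the 24 arrays; columns are arrays by group and replicate number, rows are genes by role. The column of sham 72 h replicate 2 is red for most members, by up to 1.26 above its own group for Mki67, and the other columns hold mixed colours.

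Other gene groups were high in the same array. Of 10 monocyte and macrophage markers 9 exceeded the mean of the other 5 sham arrays and 7 did so by more than 0.5, with a median of 0.77 and the largest difference, 1.86, for the lysosomal glycoprotein gene Cd68. The 8 fibroblast markers were all above, 3 of them by more than 0.5, and the collagen gene Col1a1 by 1.70. Of the 7 G1 cyclins and their kinases all 7 were above, Ccnd1 (cyclin D1) by 1.03. Of 7 inhibitors of cyclin-dependent kinases 2 were above, Cdkn1a by 1.02 and Cdkn2d by 0.12, and the median of the 7 was -0.19. The SD of Cdkn1a among the other 5 sham arrays was 0.86. None of the cardiomyocyte, endothelial, T and B cell, neutrophil, erythroid or thymocyte markers was above by more than 0.5. Most T and B cell, neutrophil and thymocyte markers lay under the receptor level of 3.95 in the other 5 arrays, so this says little about those cells. Genes outside these lists that were among the highest there, named after their values were seen, were Sprr1a (5.44), the matrix gene Tnc (4.11), the interferon-induced GTPase genes Igtp (2.92) and Gbp4 (2.87), and Postn (2.65), which encodes a matrix protein of activated fibroblasts. The atrial muscle genes Myl7 (2.59) and Sln (1.87), also named after their values were seen, were above as well. Both were higher still in sham 72 h replicate 6, Myl7 at 9.04 against 7.80 and Sln at 10.1 against 7.47 (log2), an array whose members had a median of -0.08 against the other 5 sham arrays. The part of these genes' cells in the members' values was not tested.

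**Figure D2:**
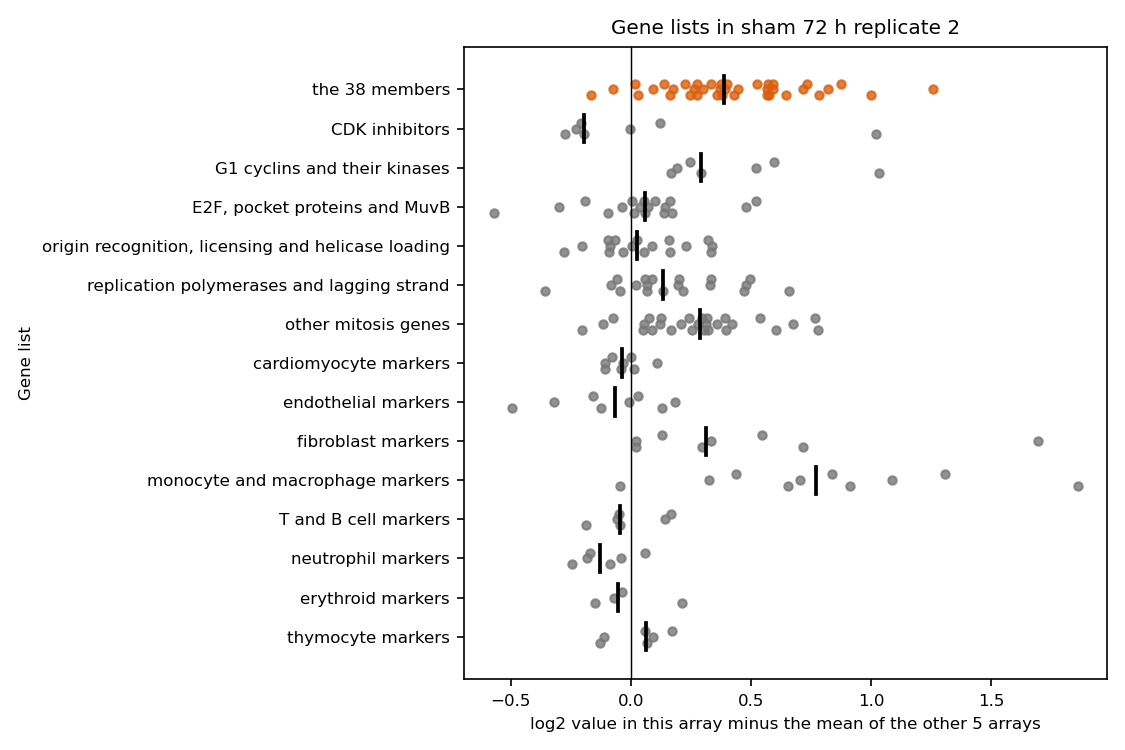
Points are genes, placed by their log2 value in sham 72 h replicate 2 minus the mean of the other 5 sham 72 h arrays; rows are gene lists and black bars their medians. The members have a median of 0.39 and reach 1.26, the monocyte and macrophage markers have a median of 0.77 and reach 1.86, and the cardiomyocyte markers lie near 0.

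Promoters of cell cycle genes are known for a few short elements. The CHR element (TTTGAA or TTCGAA) and CCAAT boxes are found at genes of the G2 phase and mitosis, where the MuvB complexes read the former and NF-Y the latter, and E2F sites (searched as TTTCGCGC, TTTGGCGC, TTTCCCGC and TTTGCCGC) are found at genes of DNA synthesis. RefSeq promoter windows on GRCm38.p6, from 250 bases before to 50 bases after the start, were at hand for 31 of the 38 members and were searched on both strands. The CHR letters were in 20 of 31 windows (64.5%, against 19.4% of 27025 promoters), CCAAT in 25 (80.6% against 37.9%), both in 19 (61.3% against 7.70%), and an E2F site in 5 (16.1% against 2.32%). Of the 5 MCM genes with a window 4 held an E2F site and 2 the CHR letters, whereas 18 of the other 26 members held the CHR letters and 1, Cdk1, an E2F site. A match is a description of the letters and not a bound site. The 200 bases before the start of 6 members follow, 5′ to 3′ on the gene's strand, with the searched letters in capitals: Mki67 and Top2a for members high in the array that stood apart, Cdk1 and Mcm5 for members lower at 24 h, Mcm6 for an E2F pattern, and Tyms for a member with none of the 3 elements that was not raised in that array.
Mki67: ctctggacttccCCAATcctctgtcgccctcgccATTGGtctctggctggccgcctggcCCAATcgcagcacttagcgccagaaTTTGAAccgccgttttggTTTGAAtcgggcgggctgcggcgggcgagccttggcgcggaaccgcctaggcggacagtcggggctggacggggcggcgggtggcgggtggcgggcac
Top2a: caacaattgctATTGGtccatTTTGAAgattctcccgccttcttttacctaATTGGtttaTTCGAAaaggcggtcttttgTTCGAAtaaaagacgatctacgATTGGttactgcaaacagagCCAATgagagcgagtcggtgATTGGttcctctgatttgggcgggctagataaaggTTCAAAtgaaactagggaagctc
Cdk1: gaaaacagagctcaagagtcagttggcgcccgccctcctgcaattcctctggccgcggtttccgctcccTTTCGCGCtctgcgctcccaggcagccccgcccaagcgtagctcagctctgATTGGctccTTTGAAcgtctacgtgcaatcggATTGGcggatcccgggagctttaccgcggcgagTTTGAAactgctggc
Mcm5: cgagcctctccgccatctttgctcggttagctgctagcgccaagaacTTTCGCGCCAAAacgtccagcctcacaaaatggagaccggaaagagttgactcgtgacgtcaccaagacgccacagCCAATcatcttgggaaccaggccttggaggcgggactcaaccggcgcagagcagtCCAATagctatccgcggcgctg
Mcm6: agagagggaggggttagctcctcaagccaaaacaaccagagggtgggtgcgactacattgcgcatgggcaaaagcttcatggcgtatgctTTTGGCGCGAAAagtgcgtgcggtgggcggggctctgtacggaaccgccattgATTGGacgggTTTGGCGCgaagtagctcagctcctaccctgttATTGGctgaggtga
Tyms: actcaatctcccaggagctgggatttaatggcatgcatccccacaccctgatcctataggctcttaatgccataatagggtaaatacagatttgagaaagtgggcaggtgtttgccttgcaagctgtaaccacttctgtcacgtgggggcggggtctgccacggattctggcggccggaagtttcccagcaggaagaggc
The Mki67 stretch lies at chr7:135716380-135716579 (minus strand), Top2a at chr11:99024190-99024389 (minus strand) and Cdk1 at chr10:69352913-69353112 (minus strand). The Mcm5 stretch lies at chr8:75109309-75109508 (plus strand), Mcm6 at chr1:128359706-128359905 (minus strand) and Tyms at chr5:30073626-30073825 (minus strand). Mki67 and Top2a carry CCAAT boxes, also as ATTGG on the other strand, and CHR letters close together. Cdk1, which drives entry into mitosis, carries an E2F site as well as both of the other elements. In Mcm5 and in Mcm6 a pair of E2F sites on opposite strands overlap in 1 capital run. The windows of Nusap1, Nuf2, Melk and Birc5 also held none of the 3 elements, and Nusap1 and Nuf2 were nonetheless higher by 0.58 and 0.57 in sham 72 h replicate 2.

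At 24 h after MCAO the members changed in no common direction. With limma over all genes, 7 of 38 passed the adjusted p threshold of 0.05 (18.4%, where 21.8% of all genes passed), 2 of them higher after MCAO (all genes, 11.1%) and 5 lower (all genes, 10.8%). The share of members that passed was close to that of all genes and is not read as a trait of the set. The median log2 change of the 38 members was 0.01, the same to 2 decimals as that of all genes, and 17 of 38 changes were negative. Of the 95% intervals, 36 of 38 lay within 0.5 of 0 and all 38 within 1. Of the 23 members under the receptor level 4 passed, Cdk1, Cenpf, Kif23 and Ttk (17.4%, against 13.8% of all genes under it). Of the receptor genes themselves 156 of 1348 passed (11.6%). Of the 15 members at or above that level 3 passed (20%, against 27.9% of all genes at or above it).

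Among the cyclins, their kinase and the transcription factor FOXM1, 1 of 5 passed. Cdk1 (Entrez Gene 12534), the kinase that drives mitosis, was between 3.41 and 3.78 in sham hearts with a median of 3.69, and between 3.20 and 3.55 after MCAO with a median of 3.35 (log2, n = 6 each). The MCAO arrays were lower as a group but overlapped the sham range. The change was -0.29 (SE 0.08, 1.22-fold lower, limma adjusted p = 0.00925), seen in 6 of 6 MCAO arrays against the sham mean. The other 4, cyclin E2 (Ccne2), Ccna2, Ccnb2 and Foxm1, had changes between -0.07 and 0.10.

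Of the 6 MCM genes, which encode the ring helicase that opens DNA at origins, 1 passed. Mcm5 (Entrez Gene 17218) ran from 3.92 to 4.40 in sham hearts with a median of 4.15 and from 3.62 to 4.19 after MCAO with a median of 3.91 (log2, n = 6 each). The groups overlapped, with 5 of 6 MCAO arrays under the sham mean. Its change was -0.25 (SE 0.08, limma adjusted p = 0.0305). Mcm2 had a change of -0.21 (adjusted p = 0.0844), Mcm6 of -0.16, Mcm7 of 0.00, Mcm4 of 0.09 and Mcm3 of 0.14. None of the 3 genes of the sliding clamp and nucleotide supply passed: Pcna had a change of 0.18 (95% interval 0.01 to 0.36, adjusted p = 0.127), Rrm2 of 0.17 and Tyms of 0.04.

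Mitotic and checkpoint kinases held the 1 member whose groups did not overlap. How many of all genes had groups without overlap was not counted, so this is a description of that gene. Ttk (Entrez Gene 22137), which encodes the spindle checkpoint kinase MPS1, lay between 3.46 and 3.65 in sham hearts with a median of 3.54 and between 3.70 and 4.08 after MCAO with a median of 3.80 (log2, n = 6 each). Every MCAO array was above every sham array. The gene rose by 0.28 (SE 0.07, 1.21-fold, limma adjusted p = 0.00609). Aurkb (Entrez Gene 20877), the Aurora kinase of the chromosomal passenger complex, moved the other way, from a sham range of 3.96 to 4.26 with a median of 4.04 to a range of 3.51 to 4.04 with a median of 3.73. All 6 MCAO arrays were below the sham mean, and 5 of them below every sham array. The change was -0.30 (SE 0.09, 1.23-fold lower, adjusted p = 0.0205). The other 5 kinases, Aurka, Plk1, Bub1, Bub1b and Melk, had changes between -0.07 and 0.11.

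Of 6 kinetochore and chromosomal passenger genes 1 passed. Cenpf (Entrez Gene 108000), a large kinetochore protein of G2 and mitosis, lay between 3.75 and 4.36 in sham hearts with a median of 3.94, and between 3.56 and 3.96 after MCAO with a median of 3.67. Its MCAO arrays were 5 of 6 below the whole sham range, with a change of -0.32 (SE 0.09, 1.25-fold lower, adjusted p = 0.0160). Cenpe, Ndc80, Nuf2, Birc5 and Cdca8 had changes between -0.07 and 0.16. Among 7 spindle motors and microtubule proteins Kif23 (Entrez Gene 71819), a kinesin of the central spindle needed for the final split of the cells, rose by 0.28 (SE 0.09, adjusted p = 0.0393). It lay between 3.30 and 3.54 in sham hearts with a median of 3.44 and between 3.50 and 4.00 after MCAO with a median of 3.74, and 4 of 6 MCAO arrays were above every sham array. The chromokinesin gene Kif4 had a change of 0.15 (adjusted p = 0.0801) and Nusap1 of 0.20 (adjusted p = 0.131), while Kif11, Kif20a, Prc1 and Tpx2 lay between -0.15 and 0.04.

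Of the 2 genes that work with the anaphase-promoting complex, the ubiquitin ligase that ends mitosis, Ube2c (Entrez Gene 68612), its ubiquitin-conjugating enzyme, passed. It ran from 3.91 to 4.81 in sham hearts with a median of 4.18 and from 3.56 to 4.04 after MCAO with a median of 3.85 (log2, n = 6 each). Its top sham value was that of replicate 4. The change was -0.40 (SE 0.12, 1.32-fold lower, adjusted p = 0.0215), the largest among the members at 24 h. Cdc20, the activator of that ligase, had a change of -0.15 (adjusted p = 0.241). Mki67 and Top2a, the last of the role groups, did not pass, with changes of 0.03 and -0.10.

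**Figure D3:**
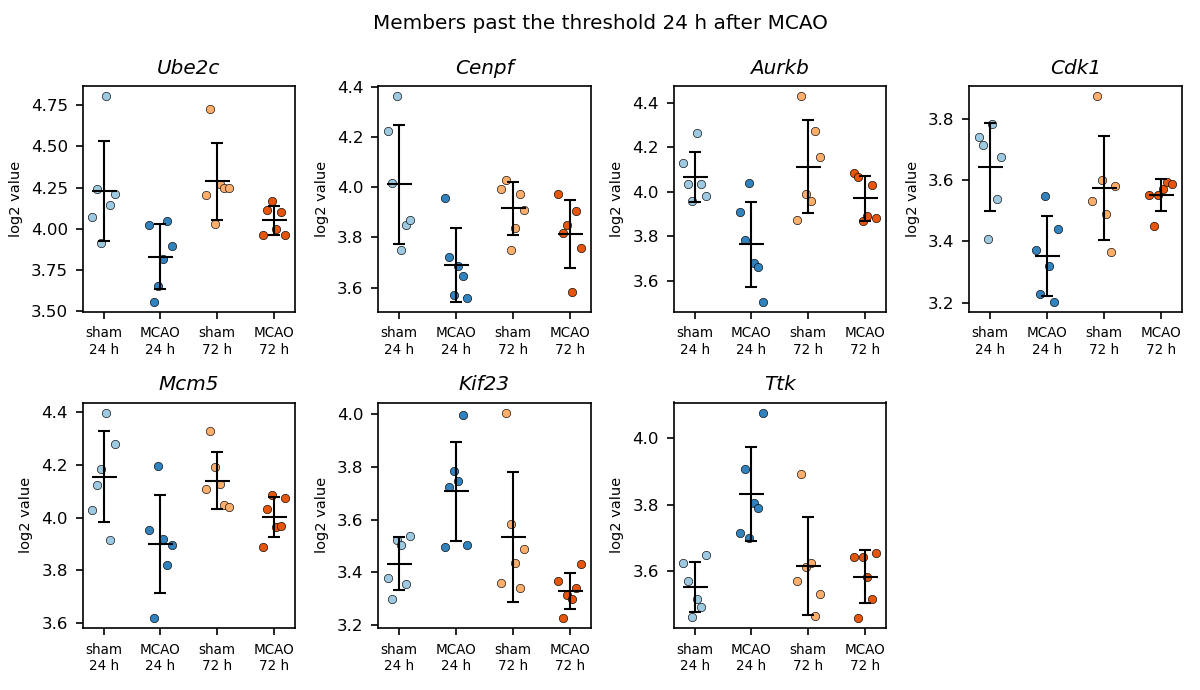
Points are the log2 values of single arrays in the 4 groups for the 7 members past the threshold at 24 h, with the mean and SD (n = 6) in black. For Ttk all 6 MCAO 24 h arrays, from 3.70 upwards, are above the sham 24 h arrays, and for the other 6 genes the ranges overlap.

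The calls at 24 h depended on the fit. Fitting only the 12 arrays of this time left 2 of them, Cdk1 and Ttk, array weights left Cdk1 and Ube2c, and dropping genes with a mean under the median value of 4.16 left 0 because all 7 fell under it (8 members were kept). Without MCAO 24 h replicates 5 and 6, which correlated least with their group across genes, 4 members passed, Cdk1, Ube2c, Ttk and Mcm2. Ttk, Cdk1 and Cenpf passed whichever array was left out. Kif23 lost its call without MCAO 24 h replicates 2, 3, 4 or 5 or sham 24 h replicates 1, 2 or 5 (highest adjusted p = 0.0953), and Mcm5 lost its call without MCAO 24 h replicates 2 or 5 or sham 24 h replicates 3, 4 or 6 (highest adjusted p = 0.0836). Ube2c lost its call without MCAO 24 h replicate 2 or sham 24 h replicate 4 (highest adjusted p = 0.0570), and Aurkb without sham 24 h replicate 4 (adjusted p = 0.0551). The count of calls was 4 without MCAO 24 h replicate 2 and 4 without sham 24 h replicate 4. Without sham 72 h replicate 2, which enters here only through the spread, it was 8, with Nusap1 added. Calls over all genes moved as well, from 5237 to 2194 with only the 12 arrays of this time. They ran from 4234 to 5867 when single arrays were left out. The losses are therefore not read as a trait of the members.

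Markers of other cells moved at 24 h beside these genes. Of 10 monocyte and macrophage markers 2 rose, Ly6c2 (0.99) and Cd14 (0.49), and 0 fell, while 7 of the 10 changes were negative with a median of -0.16. Their linear sum was 1167 to 1644 in sham arrays and 1072 to 1756 in MCAO arrays. Of 8 fibroblast markers 3 fell, Lum (-1.31), Col1a1 (-0.83) and Dpt (-0.42), with sums of 6944 to 8290 in sham arrays and 6469.5 to 8234 in MCAO arrays. Of the 8 changes 4 were negative and 4 positive, with a median of -0.02 and the highest, that of Tcf21, at 0.26. Of 8 endothelial markers Kdr fell (-0.88) and Tie1 (0.46), Pecam1 (0.27) and Esam (0.39) rose. Of 8 cardiomyocyte markers Ttn, Myh6 and Ryr2 fell by changes between -0.17 and -0.33. Of 6 neutrophil markers Retnlg rose (0.64), of 6 T and B cell markers Ms4a1 rose (0.20), of 4 erythroid markers Hbb-bs rose (0.41) and Slc4a1 fell (-0.22), and of 6 thymocyte markers Ptcra fell (-0.30). By their means in the sham 72 h arrays other than replicate 2, Retnlg (3.61), Ms4a1 (3.27) and Hbb-bs (3.28) lay under the receptor level of 3.95. Slc4a1 (4.08) and Ptcra (4.37) lay above it. Changes of such dim probes are not read as a change in neutrophils, B cells or erythroid cells. The part of these cells in the members' changes was not tested.

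At 72 h after MCAO 0 of the 38 members passed (all genes, 2.35%, with 1.17% higher and 1.19% lower), and the values leaned to the lower side. Of all genes under the receptor level 1 of 10380 passed (0.00963%), against 4.14% at or above it. As 23 of the 38 members lay under that level, the 0 is not read as a trait of the set. With limma 6 members had an unadjusted p under 0.05 (15.8%, against 10.9% of all genes). Of the 38 changes 34 were negative, against 49.2% over all genes, and their median was -0.10, against 0.00. This lean went with 1 sham array. Without sham 72 h replicate 2, 22 of 38 changes were negative (57.9%, against 12005 of 24011 over all genes), the median was -0.04, 1 member had an unadjusted p under 0.05 (2.63%, against 10.1% of all genes) and 0 passed. With all arrays 34 of 38 intervals lay within 0.5 of 0, and without that array 37 did.

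Top2a (Entrez Gene 21973), which untangles replicated DNA, had the lowest p at 72 h. Sham values ran from 3.57 to 4.52 with a median of 3.79 and MCAO values from 3.44 to 3.62 with a median of 3.48 (log2, n = 6 each). The groups overlapped, yet 5 of 6 MCAO arrays were below every sham array, and the sham value of 4.52 was that of replicate 2. The change was -0.36 (SE 0.13, limma adjusted p = 0.191), and without replicate 2 it was -0.23 (SE 0.11, adjusted p = 0.446). Mcm2 (Entrez Gene 17216), a helicase subunit, lay between 4.21 and 4.67 in sham hearts with a median of 4.42 and between 4.06 and 4.32 after MCAO with a median of 4.21. All 6 MCAO arrays were below the sham mean, 3 of them below every sham array. The change of Mcm2 was -0.22 (SE 0.09, adjusted p = 0.253), or -0.17 (adjusted p = 0.537) without replicate 2. With array weights Mcm2 (-0.23, adjusted p = 0.0257) and Top2a (-0.32, adjusted p = 0.0366) passed the threshold.

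Prc1 (Entrez Gene 233406), which bundles microtubules of the central spindle, ran from 3.33 to 4.36 in sham hearts with a median of 3.49 and from 3.23 to 3.44 after MCAO with a median of 3.35. The upper sham value was again that of replicate 2. Its change was -0.28 (SE 0.12, adjusted p = 0.361) with all arrays and -0.14 (SE 0.09, adjusted p = 0.744) without replicate 2. The largest difference by size was that of Mki67, with sham values from 3.94 to 5.29 and a median of 4.02, and MCAO values from 3.73 to 3.95 with a median of 3.81. Here 5 of 6 MCAO arrays were below every sham array. The change of Mki67 was -0.41 (SE 0.19, 95% interval -0.80 to -0.03), and -0.20 (SE 0.14, 95% interval -0.48 to 0.08) without replicate 2. Neither passed the adjusted threshold.

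By role, the 72 h changes with all arrays were as follows. Among cyclins, Cdk1 and Foxm1 they lay between -0.20 (Ccna2) and 0.07 (Foxm1), and among MCM genes between -0.22 (Mcm2) and 0.04 (Mcm4). Pcna, Rrm2 and Tyms lay between -0.17 and -0.03. The mitotic and checkpoint kinases lay between -0.15 (Plk1) and 0.03 (Bub1), and the kinetochore and passenger genes between -0.14 (Nuf2) and 0.04 (Birc5). All 7 spindle motors and microtubule proteins were negative, from -0.28 (Prc1) to -0.02 (Kif11), and so were Cdc20 (-0.05) and Ube2c (-0.24). The 4 positive members were Foxm1, Mcm4, Bub1 and Birc5. Without sham 72 h replicate 2 the cyclin group lay between -0.07 and 0.10, the MCM genes between -0.17 and 0.08, the clamp and nucleotide genes between -0.20 and 0.05, and the kinases between -0.08 and 0.07. The kinetochore genes then lay between -0.08 and 0.03 and the spindle genes between -0.14 and 0.07, with 6 of 7 negative, while Ube2c was at -0.15 and Cdc20 at 0.03.

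**Figure D4:**
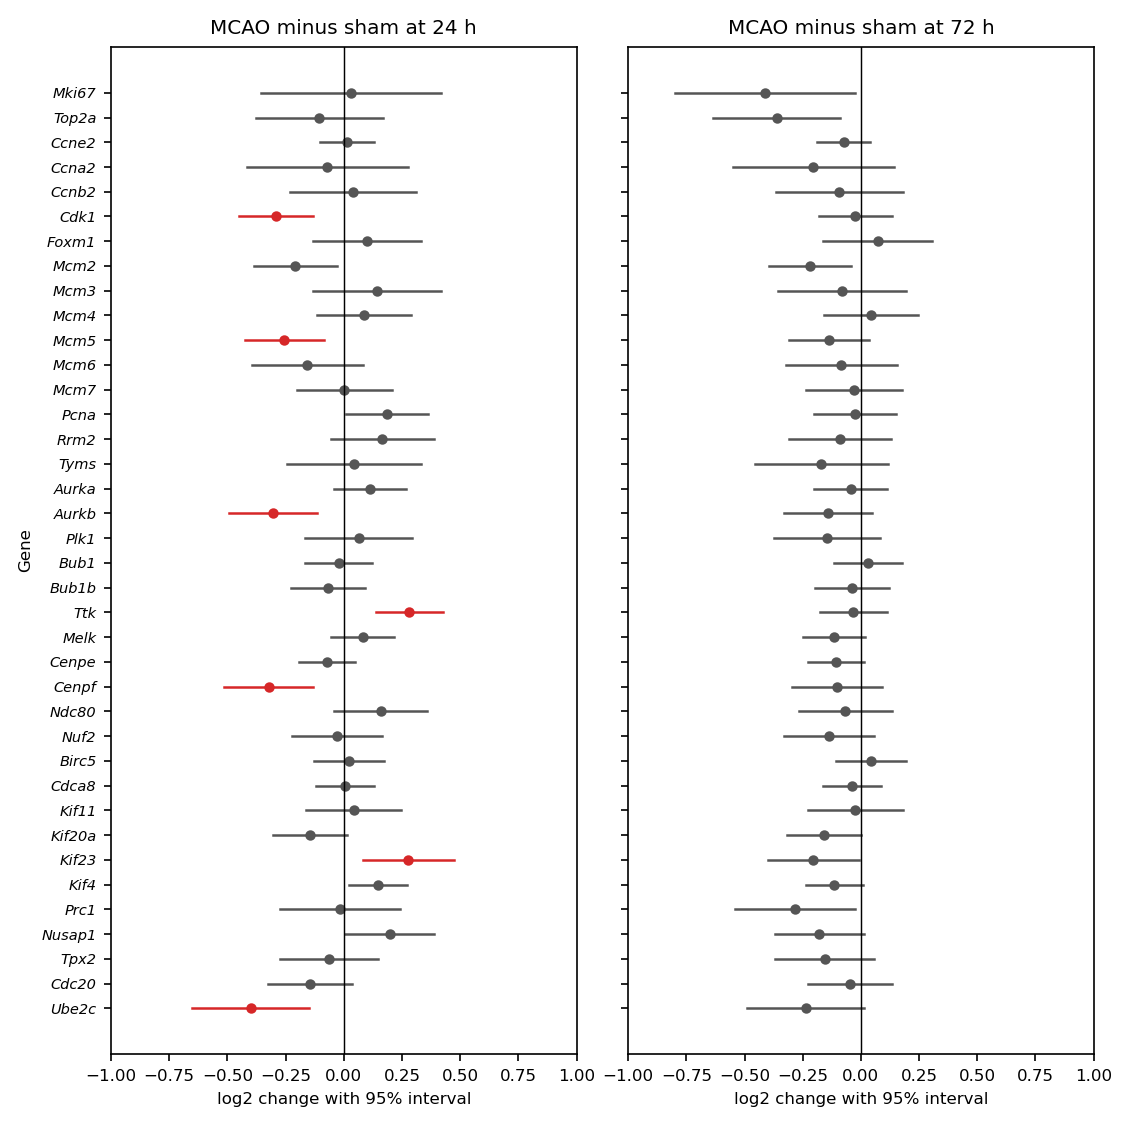
Points are log2 changes of the 38 members, MCAO minus sham, at 24 h on the left and 72 h on the right, with 95% intervals; red marks an adjusted p under 0.05. The 7 red genes at 24 h point both ways, and at 72 h 34 of 38 points are left of 0 with 0 in red.

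**Figure D5:**
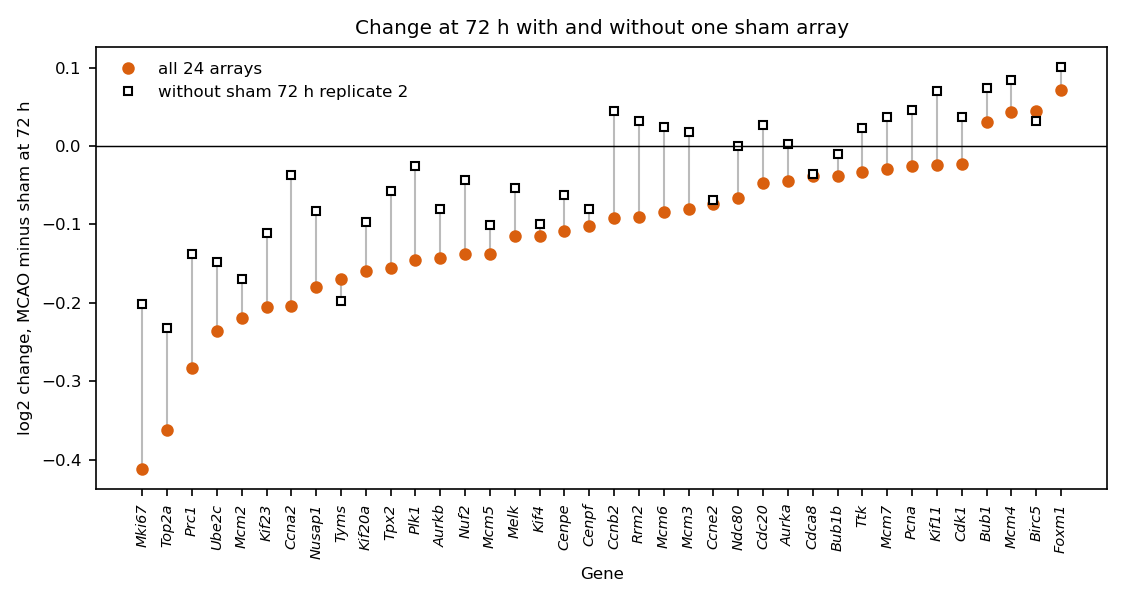
The log2 change at 72 h of each member with all 24 arrays (orange circles) and without sham 72 h replicate 2 (open squares). Most squares lie nearer to or above 0, for Mki67 at -0.20 in place of -0.41, and the count of negative changes goes from 34 to 22. The array was singled out because its members were high, so this upward move was largely set by the choice.

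Monocyte and macrophage markers had 0 of 10 past the threshold at 72 h, and 9 of the 10 changes were negative, with a median of -0.23, or 8 with a median of -0.11 without sham 72 h replicate 2. Their linear sum was 1285 to 2604 in sham arrays, 1285 to 1671 without replicate 2, and 1136 to 1679 in MCAO arrays. Fibroblast markers had sums of 7627 to 9186 in sham arrays and 8288 to 10383 in MCAO arrays, and 1 of 8, Gsn, rose (0.39). Of the 8 changes 4 were negative, with a median of -0.06 and the lowest, that of Col1a1, at -0.91 (limma adjusted p = 0.0929). Without sham 72 h replicate 2, Gsn and Pdgfra passed, both higher, and Col1a1 was at -0.63 (adjusted p = 0.203). Of 8 endothelial markers Kdr fell (-0.68) and Pecam1 rose (0.29), and both passed without that array. In the cardiomyocyte, T and B cell, neutrophil, erythroid and thymocyte lists 0 members passed. Most T and B cell, neutrophil and thymocyte markers were dim, so this says little about those cells.

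The effect of MCAO differed between the times for 0 of the 38 members (all genes, 1.79%, with 0.991% higher and 0.8% lower). At an unadjusted limma p under 0.05 there were 6 members (15.8%, against 17.6% of all genes). The members nearest to the threshold were Kif23, whose effect was lower at 72 h by a difference of -0.48 (SE 0.13, adjusted p = 0.0615), and Ttk at -0.31 (SE 0.10, adjusted p = 0.0949). Without sham 72 h replicate 2 the difference for Kif23 was -0.39 (adjusted p = 0.0739) and for Ttk -0.26 (adjusted p = 0.142). Thus Kif23 and Ttk, raised at 24 h and at -0.21 and -0.03 at 72 h, were not shown to differ between the times. Without MCAO 24 h replicate 1 the count was 1, and without MCAO 24 h replicate 6 it was also 1. Over all genes the count went from 430 to 1012 without MCAO 24 h replicate 1.

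Between the sham groups 0 of 38 members passed (all genes, 0.0208%, with 0.00833% higher and 0.0125% lower), and 0 had an unadjusted limma p under 0.05. The median change was 0.04 with all arrays and -0.03 without sham 72 h replicate 2, where again 0 passed. Between the MCAO groups 4 of 38 passed (all genes, 10.4%), 1 higher at 72 h (all genes, 5.04%) and 3 lower (all genes, 5.36%). Kif23 was lower at 72 h than at 24 h by a change of -0.38 (SE 0.09, adjusted p = 0.0138), Ttk by -0.25 (SE 0.07, adjusted p = 0.0245) and Nusap1, which binds spindle microtubules, by -0.31 (SE 0.09, adjusted p = 0.0356). Cdc20 was higher at 72 h by 0.27 (SE 0.09, adjusted p = 0.0472), from a median of 4.25 to a median of 4.50. These comparisons share arrays with those above and do not add independent evidence. The count was 1 without MCAO 72 h replicate 2, 2 without MCAO 24 h replicates 3 or 5 or without MCAO 72 h replicates 3, 4, 5 or 6, and 6 without sham 72 h replicate 2, which enters only through the spread. Over all genes it was 2496, and ran from 1615 to 3455 when single arrays were left out.

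The correlation among the members fell when sham 72 h replicate 2 was left out. That array was singled out because its members were high, so such a fall was largely set by the choice. No correlation over all genes is given as a reference, so the remaining values are not read as small or large. Sham 24 h replicate 4 was also the highest of its group for 19 members, so shared variation was not shown to be confined to sham 72 h replicate 2. The share of all genes highest in sham 24 h replicate 4 is not given here, so the 19 are not read as a trait of the members. Over 703 pairs of members, the median Pearson correlation of deviations from the group means was 0.29 across 24 arrays and 0.07 without sham 72 h replicate 2. In the 72 h groups alone it was 0.59 with that array and 0.05 without it, and in the 24 h groups 0.09. The median residual SD of the members in the 72 h groups was 0.167 with it and 0.0907 without it, whereas that of all genes was 0.116 and 0.113. The 15 other genes whose deviations followed the members' mean most closely over 24 arrays were Star (r = 0.95), Tnc, Aldh1a2, Sprr1a, Gm12250, Cd72, Fcgr1, Cd180, Meox1, Ly86, Fn1, Loxl3, Col12a1, Lox and Sparc (r = 0.82). Without the array the leading genes were Pdpn (r = 0.81), Vmn1r7 (r = 0.79) and Star (r = 0.76), and Tnc was at 0.72. These correlations share the array that stood apart, so they are given as a description over 24 or 23 arrays.

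Regulators that act before the members are given beside the share of all genes that passed, 21.8% at 24 h and 2.35% at 72 h. Of 7 inhibitors of cyclin-dependent kinases 2 rose at 24 h, Cdkn1a by 1.76 (SE 0.31, 3.38-fold) and Cdkn1c, which encodes p57, by 0.47 (SE 0.11), and Cdkn1a alone passed at 72 h at 1.73 (SE 0.31, 3.33-fold), or 1.90 (SE 0.31) without sham 72 h replicate 2. Of 7 G1 cyclins and their kinases 1 passed at 24 h, cyclin D2 (Ccnd2, -0.46, SE 0.11), and 0 at 72 h, where all 7 changes were negative with a median of -0.24, or -0.14 without sham 72 h replicate 2. Of 18 genes of the E2F family, the pocket proteins and the MuvB complex 4 rose and 2 fell at 24 h. The activator E2f1 fell (-0.44, SE 0.08), as did the repressor E2f8 (-0.23, SE 0.07), while the E2F partner Tfdp2 (0.69, SE 0.13) and the repressor E2f7 (0.26, SE 0.07) rose. E2f8 had a mean of 3.89 in the sham 72 h arrays other than replicate 2, under the receptor level of 3.95. E2f1, Tfdp2 and E2f7 lay above it. Tfdp2 passed at 72 h as well (0.71, SE 0.13, or 0.62 without that array), the 1 of 18 that did. In shares, 28.6% of the inhibitors, 14.3% of the G1 genes and 33.3% of the E2F group passed at 24 h.

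The other lists lay near or below the all-gene share of 21.8% at 24 h (11.1% higher and 10.8% lower): 11.8% of the origin genes passed, 21.1% of the polymerase genes and 21.4% of the mitosis genes. Of 17 genes that load and fire origins 1 rose at 24 h, Dbf4 (0.21, SE 0.07), and 1 fell, Cdc7 (-0.23, SE 0.07); these encode the partners of a single kinase that activates the MCM helicase. Of 19 genes of the replication polymerases and the lagging strand 1 rose, the flap nuclease gene Fen1 (0.61, SE 0.11), and 3 fell, thymidine kinase 1 (Tk1, -0.51, SE 0.11), Uhrf1 (-0.50, SE 0.12), which maintains DNA methylation at the fork, and the ribonucleotide reductase gene Rrm1 (-0.38, SE 0.12). Of 28 further mitosis genes 1 rose and 5 fell at 24 h. Those of smallest p, all lower, were cyclin F (Ccnf, -0.34, SE 0.07), the separase gene Espl1 (-0.28, SE 0.07), the centromeric histone gene Cenpa (-0.41, SE 0.12) and Racgap1 (-0.29, SE 0.09), which encodes the partner of the KIF23 protein. By their means in the sham 72 h arrays other than replicate 2, Dbf4 (3.37), Cdc7 (3.79), Fen1 (3.87) and Racgap1 (3.86) lay under the receptor level of 3.95. Tk1, Uhrf1, Rrm1, Ccnf, Espl1 and Cenpa lay above it. At 72 h 0 of 17, 0 of 19 and 0 of 28 passed in these lists, and 24 of the 28 mitosis genes had a negative change, or 12 of the 28 without sham 72 h replicate 2. In sham 72 h replicate 2, 25 of those 28 genes were above the mean of the other 5 sham arrays, 5 of them by more than 0.5.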

How the data were processed

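Total RNA of whole hearts was extracted with Trizol and hybridised to Affymetrix arrays, per the labels' protocols. Log2 values of 24973 gene identifiers in 24 arrays were deposited; their sorted values agree between arrays to within 0.00191, so the authors had quantile-normalized them. The submitters' processing notes name HOMER, and no build or summarization method is given in the sources used here. The number of arrays limits the precision. Groups came from titles; the free text of the 72 h samples names 24 h and was not followed. Symbols came from the platform annotation: 24015 identifiers had 1 symbol, 958 had none, and the brightest identifier was kept for 4 repeated symbols, leaving 24011 genes.

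The 4 group means of every gene were fitted over 24 arrays with lmFit and eBayes of limma 3.58.1 (R 4.3.3), which leaves 20 residual degrees of freedom. P-values were adjusted by Benjamini-Hochberg over 24011 genes, with a threshold of 0.05. All adjusted p-values are limma's. The fit was tested on simulated data. Alternatives were another prior, median centring, quantile normalization, a filter on dim genes, the replicate number as a block, array weights, the mean of identifiers, only the groups compared, and fits without single arrays or MCAO 24 h replicates 5 and 6.

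The members and the 14 other lists were chosen with earlier results of these data known. Full statistics were given for members past the threshold or with the 3 lowest p at either time, and other lists were named by up to 4 smallest p among genes that passed.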

Additional observations from a re-analysis of the deposited data

Results flagged for a closer look

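Within each group of 6 arrays, the highest or lowest value of a member was compared with the rest by Dixon's test (gap to the nearest array over the whole range, critical value 0.625). Of 152 combinations of a member and a group, 28 had such a value, 22 at the top and 6 at the bottom. Chance gives about 1 in 20 for independent values, but members measured on the same array are not independent. The share over all genes was not counted, so no excess particular to these genes is read from the count. Replicate 2 of sham 72 h held 15 of the 28. All 15 were the highest of the group (log2): Mki67 at 5.29, Top2a at 4.52, Prc1 at 4.36, Ccnb2 at 4.76, Ccna2 at 4.63, Plk1 at 4.65, Kif11 at 4.08, Kif23 at 4.01, Nusap1 at 4.32, Mcm3 at 4.49, Rrm2 at 4.78, Ube2c at 4.73, Nuf2 at 4.10, Melk at 3.82 and Ttk at 3.89. That array was also high in monocyte, macrophage and fibroblast markers, and their part in these values was not tested.

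Sham 24 h replicate 4 was highest in Mki67 (4.57), Prc1 (3.88) and Ube2c (4.81). It had the highest value of its group for 19 of 38 members. The share of all genes highest in it is not given here, so this count is not read as a trait of the members. Other sham arrays stood apart in 1 member each: sham 24 h replicate 2 was highest in Ccne2 (3.97), replicate 6 highest in Pcna (9.16) and replicate 3 lowest in Cdc20 (4.16), and sham 72 h replicate 3 was lowest in Ccne2 (3.58).

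After MCAO, replicate 6 at 24 h was lowest in Cenpe (3.31). At 72 h, replicate 2 was lowest in Ccne2 (3.51) and Cdk1 (3.45), replicate 4 lowest in Mcm3 (3.70), replicate 6 highest in Mcm6 (4.61) and replicate 1 highest in Cdca8 (3.67).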

How the results depend on the processing

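None of the changes of the 7 members called at 24 h, or of Top2a, Mcm2 and Prc1 at 72 h, turned sign under a setting tried. The members' median stayed between -0.05 and 0.03 at 24 h and between -0.12 and -0.04 at 72 h. Median centring, quantile normalization on top and the mean of identifiers gave 7 members at 24 h, 0 at 72 h and 4 between the MCAO groups, as reported, and the other prior moved only the difference of effects, to 1 member. With dim genes left out (fewer genes tested), 0 members passed at 24 h, where none of the 7 called members was among the 8 kept, and 0 between the MCAO groups, where Cdc20 was kept at adjusted p = 0.0646 and the other 3 were not tested; the counts over all genes were 3433 at 24 h, 218 for the difference and 1270 between the MCAO groups. With array weights the members called were 2 at 24 h, 2 at 72 h and 1 between the MCAO groups, and over all genes 3259, 1905, 27 between the sham groups and 1408 between the MCAO groups; the cause was not tested. With only the groups compared, the members called were 2 at 24 h and 1 between the MCAO groups, and over all genes 2194 at 24 h, 1410 at 72 h, 1 between the sham groups and 848 between the MCAO groups. Without MCAO 24 h replicates 5 and 6, the members called were 4 at 24 h, 1 for the difference and 1 between the MCAO groups, and over all genes 1103 at 72 h and 1079 for the difference.

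The replicate numbers did not pair the samples: 3 of 36 same-numbered pairs correlated above 0.1 (range -0.23 to 0.15). With the replicate block 6 members passed at 24 h (Kif23 at adjusted p = 0.0599), 0 at 72 h and 2 between the MCAO groups, and 1 gene between the sham groups. Leaving out single arrays gave 4 to 8 members at 24 h, 0 to 0 at 72 h, 0 to 1 for the difference, 0 to 0 between the sham groups and 1 to 6 between the MCAO groups. Over all genes the ranges were 4234 to 5867 at 24 h, 393 to 821 at 72 h, 197 to 1012 for the difference, 1 to 6 between the sham groups and 1615 to 3455 between the MCAO groups. Of the 38 members 23 lay under the 95th percentile of the receptor genes' means, 3.95.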
